A study of Mus musculus with 8 samples.

Results

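The genes described here are 10 transcription factors known from the differentiation of epidermal keratinocytes: Trp63, Klf4, Klf5, Grhl1, Grhl3, Ovol1, Barx2, Cebpa, Cebpb and Nfil3. They were taken by symbol, and are 10 of 19591 genes listed in the bulk and single-cell tables of a study of mouse back skin in telogen, the resting phase of the hair cycle. All mice were adult, on the C57BL/6 background, and carried Troy-EGFP-IRES-CreERT2, a knockin at the Troy (Tnfrsf19) locus that puts EGFP and a tamoxifen-inducible Cre in place of the Troy coding region, so that no group here lacks the reporter allele. Bulk RNA-seq (CEL-Seq2, which counts 3' ends) covered 3 sorted populations from 2 Troy-EGFP mice: all viable epidermal cells, and basal cells, sorted as ITGA6 bright, with EGFP (Troy-EGFP+) or without it (Troy-EGFP-). Single-cell RNA-seq (SORT-seq in 384-well plates) covered 4 untreated Troy-EGFP mice and 2 traced mice, which also carried Rosa26-LSL-tdTomato, were homozygous for both alleles, and were given tamoxifen so that Cre-positive cells and their progeny express tdTomato. The traced plates held tdTomato+ and tdTomato- cells collected a week later, and which well held which sort was not used here.

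The interfollicular epidermis (IFE) renews from a basal layer that attaches to the basement membrane and expresses Krt5 and Krt14. Cells that commit to differentiation switch on Krt1 and Krt10, leave this layer and later build the cornified barrier. The study reports Krt10 in some cells that are still basal. p63, encoded by Trp63, is required for stratified epithelia to form and is known from the basal layer. The zinc-finger factors Klf4 and Klf5 are known respectively from barrier acquisition in the upper layers and from basal and follicular keratinocytes. Grhl1 and Grhl3 are Grainyhead-like factors that regulate desmosomal and barrier genes, and Ovol1 is a zinc-finger repressor of the basal and progenitor programme. C/EBPα and C/EBPβ (Cebpa, Cebpb) are basic leucine zipper factors known from the exit of keratinocytes from the cell cycle. Barx2 is a homeobox factor known from the hair follicle, and Nfil3 is a basic leucine zipper repressor known from circadian control and from lymphocytes. The hair follicle (HF) holds other keratinocytes, here called upper HF and lower HF.

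On GRCm38 the genes lie on 9 chromosomes: Trp63 at chr16:25683763-25892102 (plus strand), Klf4 at chr4:55527143-55532466 (minus), Klf5 at chr14:99298691-99315036 (plus), Grhl1 at chr12:24572283-24617391 (plus), Grhl3 at chr4:135541888-135573630 (minus), Ovol1 at chr19:5549136-5560646 (minus), Barx2 at chr9:31846044-31913462 (minus), Cebpa at chr7:35119293-35121928 (plus), Cebpb at chr2:167688915-167690418 (plus) and Nfil3 at chr13:52967209-52981073 (minus). These intervals are whole gene bodies with their exons, introns and UTRs. Reads counted at 3' ends report on the gene as a whole, so the isoforms of Trp63 were not told apart. RefSeq promoter sequence of the same build was matched for 6 of the 10 genes: Klf4, Grhl1, Grhl3, Cebpa, Cebpb and Nfil3.

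Krüppel-like factors are known to bind CACCC boxes. The 200 bases before the start are therefore printed for Klf4 itself and for 3 other members described below, Cebpa, Cebpb and Grhl3, read 5' to 3' on the strand of the gene, with CACCC or its reverse complement GGGTG in capitals.
Klf4 promoter, GRCm38.p6 chr4:55532476-55532675, minus strand: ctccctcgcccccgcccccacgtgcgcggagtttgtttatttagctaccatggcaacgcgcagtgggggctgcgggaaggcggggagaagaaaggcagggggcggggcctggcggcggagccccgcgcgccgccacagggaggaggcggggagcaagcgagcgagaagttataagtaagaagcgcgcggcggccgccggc
Cebpa promoter, GRCm38.p6 chr7:35119093-35119292, plus strand: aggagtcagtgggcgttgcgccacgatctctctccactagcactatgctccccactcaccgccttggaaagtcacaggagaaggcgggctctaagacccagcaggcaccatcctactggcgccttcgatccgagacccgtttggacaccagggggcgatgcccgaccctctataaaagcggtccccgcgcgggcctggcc
Cebpb promoter, GRCm38.p6 chr2:167688715-167688914, plus strand: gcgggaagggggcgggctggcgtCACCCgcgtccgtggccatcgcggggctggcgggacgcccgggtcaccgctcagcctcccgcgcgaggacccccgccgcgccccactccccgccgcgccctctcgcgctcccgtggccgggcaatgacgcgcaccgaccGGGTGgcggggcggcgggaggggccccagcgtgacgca
Grhl3 promoter, GRCm38.p6 chr4:135573633-135573832, minus strand: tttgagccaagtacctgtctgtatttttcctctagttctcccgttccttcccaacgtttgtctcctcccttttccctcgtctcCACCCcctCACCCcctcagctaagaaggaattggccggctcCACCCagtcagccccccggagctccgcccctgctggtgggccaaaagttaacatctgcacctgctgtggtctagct

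The printed part held 3 matches in Grhl3, 2 in Cebpb and none in Klf4 or Cebpa. The box is short and frequent: 52.0% of 32851 promoters held CACCC on either strand in the 250 bases before the start. In that window Cebpa held 1 match, and one of 2 annotated Grhl1 starts held 2 and the other none, while Nfil3 held none. The longer Grainyhead motif AACNGGTT was in 1.79% of all promoters and in none of these 6, TGANTCA, the AP-1 motif, was in 6.75%, and TATAAA was in 12.4%, among them Cebpa, where it stands in the last part of the printed sequence. TTNNGNAA, the C/EBP motif, was in 36.8% of promoters and in 1 Grhl1 start. These matches describe letters only.

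Bulk libraries held 157537 to 453005 counts, and the 6 plates 236806 to 1064649 transcripts. Wells were kept with at least 1000 transcripts, which left 1109 of 2304 (48.1%), from 71 to 262 per mouse with median depths of 1676 to 3267 transcripts. Plates share the same well numbers, and no 2 wells held identical values. Troy-EGFP mouse 1 stood apart by its 71 wells, 44 of which fell in clusters that could not be named and were set aside in the comparison of cell classes. The plates of Troy-EGFP mice 3 and 4 differed from the others in holding rows for mitochondrial genes and EGFP, and in lower Trp63 and Grhl1, so results are also given within plates with and without these rows. Levels below are CPM, counts scaled to a fixed total after TMM correction. Differences are log2 fold changes from edgeR, tested by quasi-likelihood, and a gene was called where its p, adjusted over all genes tested after Benjamini and Hochberg, was below 0.05. Only levels of the same gene are compared.

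In the sorted populations, Klf4 and Klf5 rose and Cebpb fell in Troy-EGFP+ against Troy-EGFP- basal cells. 8 of the 10 genes passed the filter on low counts, and 3 of these were called, 2 higher and 1 lower, where 7.05% of 4653 genes were called. The median difference of the 8 was -0.16, against -0.04 over all genes tested. In bulk libraries fewer cells of a type and less RNA per cell cannot be told apart, and p-values rest on the spread between 2 mice.

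Klf4 stood at 1200.4 and 1096 CPM in Troy-EGFP+ cells, at 755 and 1035 CPM in viable cells and at 325 and 309 CPM in Troy-EGFP- cells of mice 1 and 2. The Troy-EGFP- libraries held 43 and 53 counts and lay below all 4 other libraries. Its difference between the basal populations was 1.86 ± 0.31 (SE, adjusted p = 0.000592), and between Troy-EGFP- and viable cells -1.50 ± 0.31 (SE, adjusted p = 0.0128). Klf5, the other Krüppel-like factor, had the same order, with 732 and 825 CPM in Troy-EGFP+ cells, 588 and 523 CPM in viable cells and 257 and 204 CPM in Troy-EGFP- cells. It was 1.76 ± 0.30 (SE, adjusted p = 0.000856) between the basal populations and -1.27 ± 0.30 (SE, adjusted p = 0.0343) in Troy-EGFP- against viable cells. The populations did not overlap for either gene between Troy-EGFP+ and Troy-EGFP- cells. With 2 libraries against 2 this is easily met, here and for the genes below, and it adds nothing to the tests. These 2 were the members called in Troy-EGFP- against viable cells, where 1.78% of genes were called. Both calls turned on single libraries: without viable replicate 2 neither gene was called, and without viable replicate 1, Troy-EGFP+ replicate 1 or Troy-EGFP+ replicate 2, 1 of them was. No member was called in Troy-EGFP+ against viable cells by edgeR or DESeq2, where 0.473% of genes were called and 1 member was at an unadjusted p under 0.05, with Klf4 at 0.36 ± 0.28 (SE, adjusted p = 0.927) and Klf5 at 0.49 ± 0.27 (SE, adjusted p = 0.826). The 3 comparisons share libraries, so their values are not independent.

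Cebpb went the other way. It stood at 143 and 99.1 CPM in Troy-EGFP- cells, 71.3 and 72.1 CPM in viable cells and 45.6 and 27.1 CPM in Troy-EGFP+ cells, from 19 and 17, 20 and 32, and 17 and 6 counts. The basal populations did not overlap, with a difference of -1.63 ± 0.42 (SE, adjusted p = 0.0220). The call was lost with DESeq2 (adjusted p = 0.146), with no filter on low counts (adjusted p = 0.0559), with only the 2 populations in the fit (adjusted p = 0.0566) and without Troy-EGFP+ replicate 1, Troy-EGFP+ replicate 2 or Troy-EGFP- replicate 1. Barx2 was likewise lower in both Troy-EGFP+ libraries (45.6 and 22.6 CPM) than in both Troy-EGFP- libraries (75.5 and 117 CPM), with viable cells at 57.0 and 40.6 CPM. Its difference of -1.42 ± 0.47 (SE, adjusted p = 0.0738) did not pass, and with the mouse as a block, since each mouse gave all 3 populations, it was -1.46 ± 0.48 (SE, adjusted p = 0.0372). Trp63 gave 91.1 and 108 CPM in Troy-EGFP+ cells, 125 and 101 CPM in viable cells and 45.3 and 70.0 CPM in Troy-EGFP- cells. Its groups did not overlap between the basal populations, but its difference of 0.74 ± 0.41 (SE, adjusted p = 0.342) was not called. Grhl1 (-0.78 ± 0.54 SE, adjusted p = 0.461), Cebpa (-0.78 ± 0.61 SE, adjusted p = 0.533) and Ovol1 (0.46 ± 0.48 SE, adjusted p = 0.657) were not called either. Grhl3 gave 1 to 6 counts and Nfil3 0 to 2 counts per library, too few to compare at this depth.

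**Figure D1:**
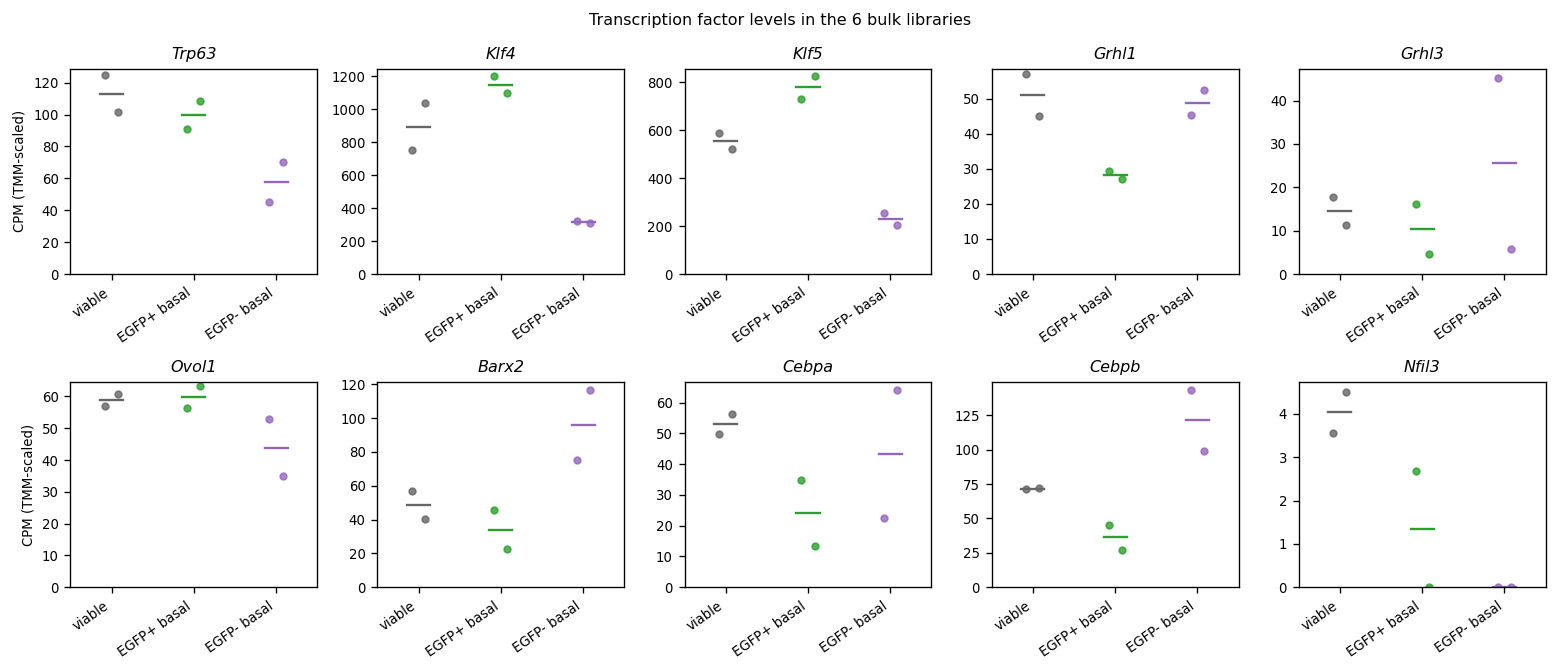
Level of each of the 10 factors in CPM, 1 point per library, in viable, Troy-EGFP+ and Troy-EGFP- cells of 2 mice, with bars at the means. Klf4 and Klf5 lie lowest in the Troy-EGFP- libraries, at 325 and 309 and at 257 and 204 CPM, and Cebpb lies highest there, at 143 and 99.1 CPM.

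Markers of other cell types moved with these differences. The summed level of Langerhans cell markers, of which 6 of 7 were listed in the bulk tables, was 1318 to 1329 CPM in Troy-EGFP- cells, 99.2 to 105 CPM in Troy-EGFP+ cells and 345 to 616 CPM in viable cells, with 0 to 1 and 2 to 3 of the 6 at 0 in the Troy-EGFP- and Troy-EGFP+ libraries. For T cell markers, with 6 of 7 listed, it was 163 to 309.5, 4.51 to 8.04 and 76.6 to 99.8 CPM, with 3 to 5 of the 6 at 0 in Troy-EGFP+ libraries, and for upper HF markers, with 6 of 7 listed, 4163 to 7761, 750.3 to 902 and 3640.0 to 4593 CPM. Basal IFE (IFE I) markers went the other way, at 13747 to 14606, 23575 to 24365 and 19131 to 20871 CPM. Lower HF markers gave 13219 to 14945 CPM in Troy-EGFP- and 8960.4 to 10346 CPM in Troy-EGFP+ cells. Sebaceous gland markers, all 5 listed, were at 437 to 491, 144 to 214 and 252 to 417 CPM, with 0 and 1 at 0 in each Troy-EGFP- and Troy-EGFP+ library, and fibroblast markers, all 4 listed, at 58.3 to 83.0, 5.36 to 13.5 and 9.02 to 132 CPM, with 1 to 2 and 3 at 0. The part of these markers in the results was not tested. The differentiation keratins rose too, Krt1 by 2.03 (adjusted p = 0.000338) and Krt10 by 1.66 (adjusted p = 0.00179) in Troy-EGFP+ against Troy-EGFP- cells, while the basal keratins Krt14 (0.58 ± 0.32 SE, adjusted p = 0.326) and Krt5 (0.89 ± 0.33 SE, adjusted p = 0.119) were not called.

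Of 30 other regulators known from skin, 20 were tested between the basal populations, and 5 rose and 1 fell. Satb1, a chromatin organiser, rose by 2.66, the leucine zipper factor Maf by 2.46, Gata3 by 1.68, Klf3 by 1.57 and Bcl11b by 1.21, and the vitamin D receptor gene Vdr fell by 1.06 on the log2 scale. Maf (-1.98) and Gata3 (-1.24) also fell in Troy-EGFP- against viable cells, and none was called in Troy-EGFP+ against viable cells by edgeR, with 3 at an unadjusted p under 0.05. Of 16 early differentiation genes, 12 were tested and 5 rose in Troy-EGFP+ against Troy-EGFP- cells, among them Mt4 by 2.84 and Tgm3 by 2.46, and of 14 basal genes all were tested and 5 rose, among them Itga6, used in the sort, by 1.50 and its partner Itgb4 by 1.36.

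Wells were then ordered within each mouse by the share of their transcripts from Krt1 and Krt10, the keratins of committed cells, to see where along this order each factor changed. The share was 0 in 683 of 1109 wells (61.6%, and 42.2 to 83.1% per mouse) and reached 5.65%. Each mouse's wells were divided by rank into 4 groups of like size, Q1 to Q4. Wells in Q1 had no Krt1 or Krt10 transcript, 93.8% in Q2 and 50.0% in Q3 had none, and the median share in Q4 was 0.767%. Since tied wells at 0 were placed at random, Q1 and Q2 differ little in the measure itself, nor do Q2 and Q3 in Troy-EGFP mice 1 and 2, and wells were also grouped as having none (683 wells), a low share (214) or a high share (212), the last 2 divided at each mouse's median share of its positive wells. Depth moved with the order, from a median of 2515 transcripts per well in Q1 to 3626 in Q4, and from 2509 with none to 3517 with a low and 4130 with a high share.

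Klf4, Klf5 and Cebpa rose and Barx2 fell in Q4 against Q1. 7 of the 10 genes passed the filter (Grhl3, Ovol1 and Nfil3 did not), and these 4 were called, where 15.6% of 4007 genes were called. The median of the 7 was 0.95, against 0.02 over all genes. Between Q3 and Q4 5 members were called, against a background of 13.6%, but 0 were called in this step within wells of the 2 interfollicular classes, within the plates without an EGFP row, or without the mouse as a block. Between Q1 and Q2, and between Q2 and Q3, no member was called and none was at an unadjusted p under 0.05. The percentage of genes called in each of these steps was 0.0, with 128 and 95 genes at an unadjusted p under 0.05 in edgeR and 0 called by DESeq2. These null steps do not place the change, since Q2 held no well with a Krt1 or Krt10 transcript in 5 of 6 mice and Q3 held none in 2, so that in these mice tied wells were compared with tied wells. Steps that share a group are not independent of each other.

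Klf4 ranged from 304 to 776 CPM with a median of 625 over the 6 mice in Q1, and from 899.8 to 1947 CPM with a median of 1432 in Q4. Every mouse's Q4 lay above every mouse's Q1, and the difference was 1.29 ± 0.22 (SE, adjusted p = 5.51e-05). The means over mice were 565 ± 192, 628 ± 396, 683 ± 196 and 1432 ± 421 CPM (SD, n = 6) from Q1 to Q4, and the last step was 1.12 ± 0.21 (SE, adjusted p = 0.000414). Klf5 ranged from 54.1 to 219.7 CPM with a median of 127 in Q1 and from 114 to 559 CPM with a median of 373 in Q4. It was higher in Q4 in every Troy-EGFP mouse and in traced mouse 2, while traced mouse 1 had 114 CPM in both. The difference was 1.2 ± 0.25 (SE, adjusted p = 0.000579) and the last step 1.06 ± 0.24 (SE, adjusted p = 0.00208).

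Cebpa ranged from 0 to 132 CPM with a median of 34.0 in Q1 and from 60.8 to 232 CPM with a median of 166 in Q4. It was higher in Q4 in each of the 6 mice, though the groups overlapped, and the traced mice had 124 and 132 CPM in Q1. The difference was 1.31 ± 0.30 (SE, adjusted p = 0.00184) and the last step 1.15 ± 0.29 (SE, adjusted p = 0.00541). Cebpb, its paralogue, was not called. It ranged from 0 to 211 CPM with a median of 166 in Q1 and from 58.5 to 228 CPM with a median of 138 in Q4, a difference of -0.24 ± 0.30 (SE, adjusted p = 0.691). By mouse, Cebpb was 159 and 211 CPM in Q1 and 80.5 and 58.5 CPM in Q4 of the traced mice, while in the Troy-EGFP mice it went from 0, 173, 87.9 and 185 CPM to 144, 132, 228 and 190.3 CPM. The test of that difference between the 2 kinds of mice gave -1.88 ± 0.56 (SE, adjusted p = 0.441). Within wells of the 2 interfollicular classes described below the direction of Cebpb turned, to 1.29 ± 0.46 (SE, adjusted p = 0.0431).

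Barx2 was lower in Q4 than in Q1, without a steady fall before Q4. In Troy-EGFP mice 3 and 4 it was 110 and 84.2 CPM in Q1 and 159 and 134 CPM in Q3. It ranged from 40.0 to 182 CPM with a median of 84.3 in Q1 and from 10.1 to 46.6 CPM with a median of 21.6 in Q4. Every mouse was lower in Q4 than in Q1, with a difference of -1.78 ± 0.36 (SE, adjusted p = 0.000485) and a last step of -1.74 ± 0.35 (SE, adjusted p = 0.000679). Nfil3 was too low to pass the filter. It was at 0 in Q4 in 5 of 6 mice, with 4.50 CPM in traced mouse 2, and at 0 in Q1 in 1 mouse, with up to 29.3 CPM in the others. With no filter on low counts its fitted difference was -3.47 ± 0.92 (SE, adjusted p = 0.00588), which depends on the prior count where a group is at 0.

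Grhl1 ranged from 0 to 223 CPM with a median of 15.7 in Q1 and from 40.3 to 288 CPM with a median of 159 in Q4. It was not called between these groups (0.95 ± 0.41 SE, adjusted p = 0.123), but was called in the last step, at 1.46 ± 0.42 (SE, adjusted p = 0.0179). The Grhl1 call was lost in 7 of 19 alternatives, among them only the wells not set aside (adjusted p = 0.0559), Troy-EGFP mice only (adjusted p = 0.136), plates without an EGFP row (adjusted p = 0.108) and without Troy-EGFP mouse 4 (adjusted p = 0.0538). The call of Cebpa in the last step was also lost without Troy-EGFP mouse 4. Grhl3 had 0 to 34.7 CPM in Q1 and 19.4 to 165 CPM in Q4, and Ovol1 0 to 60.2 CPM in Q1 and 20.3 to 114 CPM in Q4. With no filter the differences were 1.80 ± 0.55 (SE, adjusted p = 0.0254) for Grhl3 and 1.56 ± 0.43 (SE, adjusted p = 0.00993) for Ovol1. Both rest on few counts, and Grhl3 was at 0 in Q1 of Troy-EGFP mice 1, 2 and 3. Grhl3 went the other way in traced mouse 1 (34.7 to 28.4 CPM), and Ovol1 in Troy-EGFP mouse 2 (26.7 to 20.3 CPM). Trp63 was not called in any step. Its mean was 285 ± 197 CPM in Q1 and 324 ± 176 CPM in Q4 (SD, n = 6), with a difference of 0.02 ± 0.20 (SE, adjusted p = 0.976). Its spread lay between plates, with 94.0 and 109 CPM in Q4 of Troy-EGFP mice 3 and 4 against 396 to 494 CPM in the other 4 mice.

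**Figure D2:**
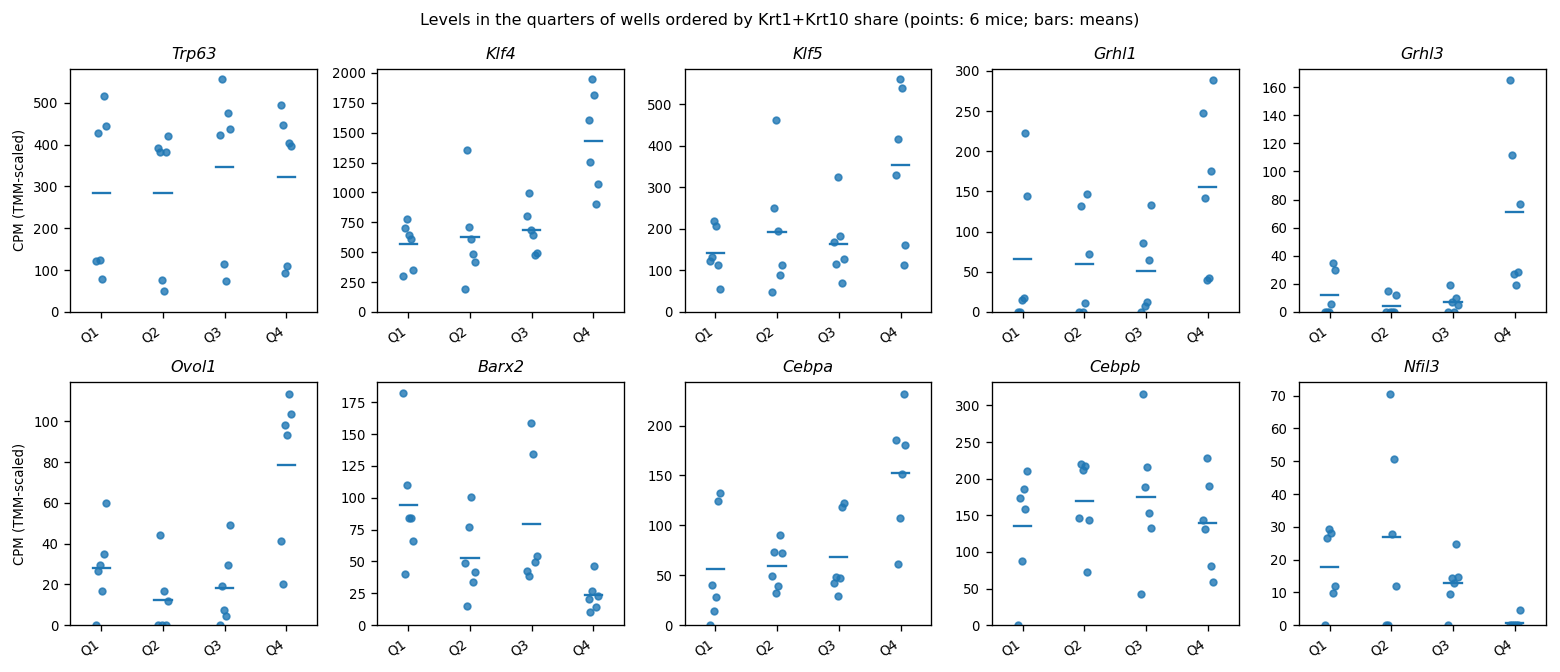
Level of each factor in CPM, summed over the wells of each mouse, in groups Q1 to Q4 of rising Krt1 and Krt10 share, 1 point for each of 4 Troy-EGFP and 2 traced mice, with bars at the means. Klf4 is higher in Q4 than in Q1, with all 6 mice at 899.8 CPM or more in Q4, and Barx2 falls to 46.6 CPM or less in Q4.

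Grouping by none, low and high share gave 6 of 8 tested members called between high and none, where 19.8% of 4312 genes were called. Klf4 (1.22 ± 0.16 SE, adjusted p = 2.10e-06), Klf5 (1.12 ± 0.21 SE, adjusted p = 0.000255) and Cebpa (1.46 ± 0.28 SE, adjusted p = 0.000253) rose. Grhl1 (1.22 ± 0.33 SE, adjusted p = 0.00779) rose as well. Barx2 fell (-1.83 ± 0.36 SE, adjusted p = 0.000422), and Trp63 (-0.00 ± 0.21 SE, adjusted p = 0.995) and Cebpb (-0.35 ± 0.25 SE, adjusted p = 0.392) were not called. Ovol1 had means of 21.5 ± 14.3, 32.9 ± 15.3 and 79.4 ± 51.8 CPM (SD, n = 6) in wells with none, a low and a high share. Ovol1 is 1 of the 6, but it came past the filter through the high group, which held its 4 highest sums, 82.3 to 143 CPM, so its test is not given and its call carries no weight. No member was called by edgeR between low and none, nor at an unadjusted p under 0.05, where 0.0928% of genes were called, and the same 6 were called between high and low, where 15.0% of genes were called. The basal keratin Krt14 fell by 1.41 on the log2 scale between high and none (adjusted p = 9.25e-05).

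Fixed limits of the share gave finer bins along the order. In 5 mice, leaving out Troy-EGFP mouse 1 for its few wells, Klf4 had a mean of 615 ± 236 CPM (SD, n = 5, scaled to total transcripts without TMM) at a share of 0, 599.6 ± 45.5 CPM up to 0.2%, 1174 ± 289 CPM from 0.2 to 1% and 1499.9 ± 423 CPM above 1%. Klf5 had 152 ± 78.7, 204 ± 106, 360.3 ± 258 and 320.2 ± 167 CPM. The means of both were higher at 0.2 to 1% than at a share of 0, though Klf5 ranged there from 62.5 to 591 CPM over mice. Krt14 was 4795 ± 3726 CPM there and 707 ± 333 CPM above 1%, and Krt5 was 14855 ± 7597 and 5613 ± 2243 CPM. Krt14 ranged from 1101 to 9372 CPM over mice at 0.2 to 1%. With this spread the bin does not tell whether Krt14 had begun to fall. Grhl1 was 55.2 CPM at 0.2 to 1% and 178 CPM above 1%, against 74.1 CPM at 0. Cebpa went from 51.1 to 132 and 189.5 CPM over the last 3 bins, Ovol1 from 29.1 to 65.9 and 87.8 CPM, and Grhl3 from 17.0 to 45.8 and 77.3 CPM. Barx2 was 59.1 CPM up to 0.2% and 15.5 CPM at 0.2 to 1%. The bin from 0.2 to 1% held 50 wells and these values carry no test. It held 9 transcripts of Grhl1, 10 of Ovol1, 4 of Grhl3 and 5 of Barx2 in all, too few to place these factors.

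**Figure D3:**
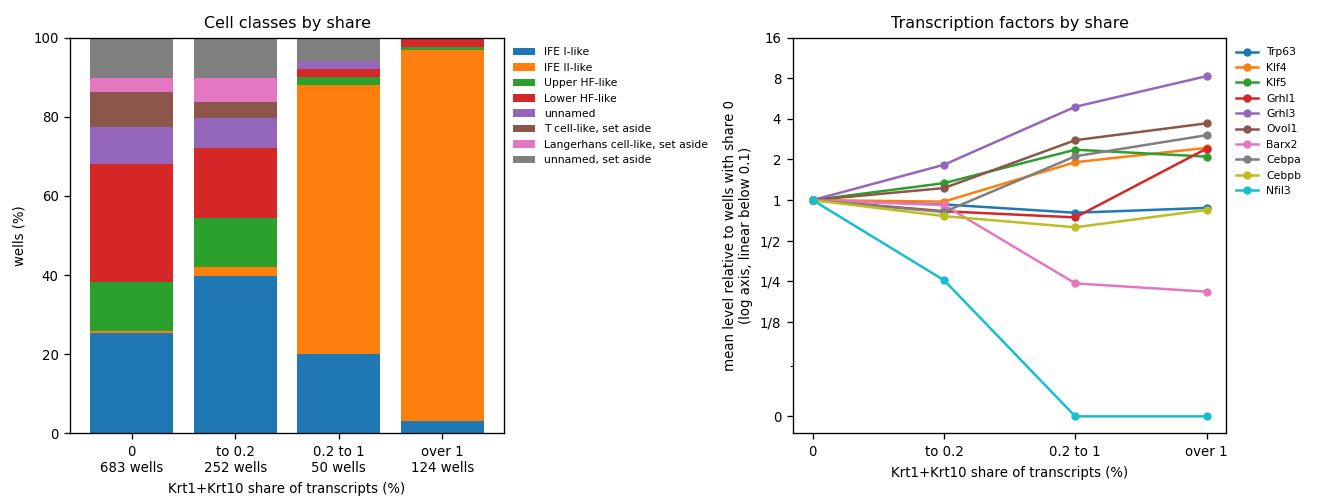
Left, share of wells of each class in 4 bins of Krt1 and Krt10 share (683, 252, 50 and 124 wells). Right, mean level over 5 mice of each factor in these bins relative to its level at a share of 0, where Klf4 goes from 615 to 1499.9 CPM and Barx2 from 64.3 to 13.5 CPM.

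The order also sorted the wells by cell class. Of the 124 wells above 1%, 116 were IFE II-like, the committed class described below. So were 34 of the 50 wells from 0.2 to 1%, but 6 of the 252 wells above 0 and up to 0.2%. Q1 held 27.9% lower HF-like, 23.6% IFE I-like, 13.2% upper HF-like, 10.4% T cell-like and 4.64% Langerhans cell-like wells against 7.27%, 22.2%, 4.73%, 1.82% and 0.727% in Q4. The median summed level of T cell markers over mice was 1245 CPM in Q1 (range 145 to 1741) and 56.6 CPM in Q4 (range 18.7 to 445), and that of Langerhans markers 2273 CPM (range 30.7 to 21929) and 188 CPM (range 25.4 to 1819). All 4 calls were also made in the wells not set aside, which are the 4 named epidermal classes and 85 unnamed wells of the traced mice. There Klf4 was at 1.15 ± 0.19 (SE, adjusted p = 3.38e-05), Klf5 at 1.04 ± 0.23 (SE, adjusted p = 0.00134), Cebpa at 1.24 ± 0.30 (SE, adjusted p = 0.00274) and Barx2 at -2.22 ± 0.37 (SE, adjusted p = 3.72e-05). In wells of the IFE I-like and IFE II-like classes alone Klf4 (1.07 ± 0.18 SE, adjusted p = 1.94e-05) and Cebpa (2.61 ± 0.55 SE, adjusted p = 0.000480) were called, Klf5 was not (0.09 ± 0.25 SE, adjusted p = 0.857), and Barx2 did not pass the filter there. In the last step within these 2 classes Klf4 (0.44, adjusted p = 0.149), Cebpa (1.32, adjusted p = 0.0853) and Klf5 (0.35, adjusted p = 0.541) were not called.

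Within the plates of Troy-EGFP mice 3 and 4, Klf4 (1.43 ± 0.24 SE, adjusted p = 0.000562), Klf5 (1.38 ± 0.32 SE, adjusted p = 0.00647) and Cebpa (2.56 ± 0.54 SE, adjusted p = 0.00342) were called and Barx2 was not (-1.34 ± 0.47 SE, adjusted p = 0.0725). Within the other 4 plates Klf4 was called (1.16 ± 0.28 SE, adjusted p = 0.00741), and Klf5 (1.02 ± 0.36 SE, adjusted p = 0.0867) and Cebpa (0.80 ± 0.37 SE, adjusted p = 0.236) were not. After each well was thinned to 1000 transcripts 4 members could be tested, of which Klf4 (0.94 ± 0.20 SE, adjusted p = 0.00159) and Klf5 (1.49 ± 0.35 SE, adjusted p = 0.00354) were called. Without the mouse as a block, Klf4 (1.32 ± 0.35 SE, adjusted p = 0.0316) and Barx2 (-1.73 ± 0.47 SE, adjusted p = 0.0358) were. In tests of whether the change from Q1 to Q4, or between classes, differed between traced and Troy-EGFP mice, 0 of 34 tests over members passed with edgeR and 6 were at an unadjusted p under 0.05. The closest was Trp63 in upper HF-like against IFE I-like wells, at -1.72 (adjusted p = 0.0611). Over all genes, 0 of 4007 were called for Q4 against Q1. Of 3188 genes, 1, 47 and 1 were called for IFE II-like, upper HF-like and lower HF-like wells. The 34 tests include Grhl3, Ovol1 and Barx2 between classes, where they came past the filter through the classes in which they were high.

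Of the 30 other regulators, 21 were tested between Q4 and Q1, and 9 rose and 3 fell, with a list median of 0.47 against 0.02 over all genes. Those that rose included Zfp750 (1.54), a p63 target that promotes terminal differentiation, Gata3 (1.56), Pou2f3 (1.27), the Notch effector Hes1 (1.16), Satb1 (1.14), Bcl11b (0.85) and Tfap2c (0.79). Ets1 (-2.41) and Runx1 (-1.76), both also expressed by lymphocytes, and Vdr (-0.90) fell. Of 16 early differentiation genes 14 were tested and 11 rose, among them Krtdap by 3.95 and Mt4 by 6.10. Of 14 basal genes 13 were tested and 1 fell, the laminin gene Lamb3 (-1.37), while 10 of 14 fell between wells with a high share and none.

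Clusters of wells, made with the 10 factors and the other regulators held out, were named from marker genes. They were 287 IFE I-like (basal), 159 IFE II-like (committed), 118 upper HF-like and 252 lower HF-like wells, besides 85 wells left unnamed and 208 set aside, 70 of them T cell-like and 39 Langerhans cell-like. Sums per mouse were tested in Troy-EGFP mice 2, 3 and 4, and Troy-EGFP mouse 1, with 3 to 9 wells per class, was left out. 7 of the 10 members passed the filter, and Grhl3, Ovol1 and Nfil3 did not. Against IFE I-like wells, 3 members were called in IFE II-like wells, 4 in upper HF-like wells and 3 in lower HF-like wells, where 11.8%, 14.4% and 15.0% of 3175 genes were called. The 3 comparisons share the IFE I-like sums. Barx2 is among the members called in both follicular classes, and for the reason given below its calls there carry no weight. The members' medians were 0.93, 1.29 and 0.34, against -0.01, -0.04 and 0.03 over all genes. These calls rest on 3 mice: the counts were 4, 6 and 2 without Troy-EGFP mouse 2, 2, 2 and 1 without Troy-EGFP mouse 3, and 0, 1 and 2 without Troy-EGFP mouse 4.

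Klf4 rose from the basal to the committed class. It was 1066, 1125 and 956 CPM in IFE I-like wells and 1915, 1957 and 2056 CPM in IFE II-like wells of Troy-EGFP mice 2, 3 and 4. No mouse overlapped, with a difference of 0.93 ± 0.22 (SE, adjusted p = 0.00265). Lower HF-like wells had 1146, 1120.4 and 1232 CPM, close to IFE I-like wells (0.16 ± 0.22 SE, adjusted p = 0.742). Upper HF-like wells had the lowest levels in these mice, 935, 352 and 432 CPM, a difference of -0.96 ± 0.24 (SE, adjusted p = 0.00507) that was not called with the traced mice added (-0.42 ± 0.25 SE, adjusted p = 0.239). The traced mice had 637 and 831 CPM in IFE I-like and 1099 and 1463 CPM in IFE II-like wells, and 946 and 729 CPM in upper HF-like wells. Their lowest levels were in lower HF-like wells, at 562 and 612 CPM. Klf5 was lower in both follicular classes than in IFE I-like wells. It was 355, 672 and 468 CPM in IFE I-like and 445, 542 and 648 CPM in IFE II-like wells (0.15 ± 0.26 SE, adjusted p = 0.820). It was 56.7, 262 and 136 CPM in lower HF-like wells (-1.74 ± 0.30 SE, adjusted p = 3.59e-05) and 213, 220.1 and 138 CPM in upper HF-like wells (-1.46 ± 0.32 SE, adjusted p = 0.00102). In the mice tested both follicular classes lay below both interfollicular classes.

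Cebpb was highest in upper HF-like wells, at 701, 543 and 613 CPM, against 69.4, 90.8 and 82.1 CPM in IFE I-like wells. The difference was 2.89 ± 0.30 (SE, adjusted p = 5.50e-09), and 438 and 469 CPM against 40.6 and 29.9 CPM in the traced mice. IFE II-like wells, at 178, 212 and 208 CPM (1.34 ± 0.33 SE, adjusted p = 0.00399), and lower HF-like wells, at 249.5, 136 and 154 CPM (1.08 ± 0.34 SE, adjusted p = 0.0245), lay between, all above the IFE I-like wells. The lower HF call was lost when any 1 of the 3 mice was left out, and the IFE II call without Troy-EGFP mouse 3 or 4. Cebpa was 69.4, 18.2 and 33.8 CPM in IFE I-like and 134, 118 and 129.5 CPM in IFE II-like wells, without overlap (1.79 ± 0.56 SE, adjusted p = 0.0317). This call was lost in 4 of 10 alternatives: with DESeq2 (adjusted p = 0.0758), without the block, and without Troy-EGFP mouse 3 or 4. In upper HF-like wells Cebpa was 42.5, 88.0 and 129.5 CPM and not called (1.29 ± 0.63 SE, adjusted p = 0.201). In traced mice Cebpa was 81.3 and 77.7 CPM in IFE I-like, 336 and 328 CPM in IFE II-like and 367 and 299 CPM in upper HF-like wells, and with these mice added the upper HF difference was 1.72 ± 0.37 (SE, adjusted p = 0.000764).

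Barx2 was higher in both follicular classes than in IFE I-like wells. It was 56.7, 293 and 203 CPM in lower HF-like and 42.5, 176 and 173 CPM in upper HF-like wells, against 17.3, 24.2 and 77.2 CPM in IFE I-like and 0, 29.6 and 28.2 CPM in IFE II-like wells. It came past the filter through these follicular classes, where its highest sums lay, at 173 to 293 CPM. Its tests in them are therefore not given, and its calls in both carry no weight. IFE II-like wells were not called (-0.93 ± 0.62 SE, adjusted p = 0.431). The upper HF call was lost in 5 of 11 alternatives, among them without Troy-EGFP mouse 3 (adjusted p = 0.405) and without Troy-EGFP mouse 4 (adjusted p = 0.119), and the lower HF call without Troy-EGFP mouse 3 and without the block. In the traced mice it was 142 and 76.5 CPM and 118 and 78.1 CPM in the lower and upper HF-like wells and at or below 12.0 CPM in both interfollicular classes. Nfil3 was too low to test. Among the 4 epidermal classes its transcripts lay mostly in lower HF-like wells, which had 34.0, 147 and 37.0 CPM from 3, 14 and 6 transcripts, and 107 and 43.7 CPM in the traced mice. Among the other 3 classes it was detected in 1 of 3 Troy-EGFP mice in IFE I-like and in upper HF-like wells and in none in IFE II-like wells. T cell-like wells, a kind of cell known to use Nfil3, had a mean of 62.8 CPM (6 transcripts, scaled without TMM) over 2 Troy-EGFP mice, where lower HF-like wells had 58.0 CPM on the same scale over 3, and 0 in 28 wells of the traced mice, where 3 transcripts would have been 54.0 CPM. The Nfil3 transcripts were unevenly spread within the class: 14 of the 23 in the Troy-EGFP mice lay in 21 of the 152 lower HF-like wells (6 wells with a transcript, 206 CPM pooled), which stood as an unnamed cluster in the first clustering and again at a finer resolution, led by Fgf18 and with Pmp22 and Sh3kbp1 among its top 10 genes. The 125 wells that the first clustering already named lower HF-like held 9 Nfil3 transcripts (26.5 CPM), while Barx2 was 176 CPM in the 21 and 165 CPM in the 125 wells. The Nfil3 value of the class rests in large part on this small group.

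In the Troy-EGFP mice, Grhl3 and Ovol1 were at 0 or low in IFE I-like and lower HF-like wells. Grhl1 was 69.4, 0 and 4.83 CPM in IFE I-like, 111, 49.3 and 39.4 CPM in IFE II-like and 234, 0 and 43.2 CPM in upper HF-like wells of Troy-EGFP mice 2, 3 and 4, and 90.7, 10.5 and 18.5 CPM in lower HF-like wells. Neither the IFE II nor the upper HF difference passed, at 2.13 ± 0.76 (SE, adjusted p = 0.0654) and 1.98 ± 0.79 (SE, adjusted p = 0.101), and the values differed between plates. In the traced mice Grhl1 was 40.6 and 35.9 CPM in IFE I-like, 326 and 277 CPM in IFE II-like, 579 and 443 CPM in upper HF-like and 171 and 284 CPM in lower HF-like wells. With all 5 mice the differences from IFE I-like wells were 2.63 ± 0.44 (SE, adjusted p = 5.60e-05) in IFE II-like and 3.08 ± 0.43 (SE, adjusted p = 2.26e-06) in upper HF-like wells. None is given for lower HF-like wells, since 1 of the 43 wells of traced mouse 2 in that class had a Krt1 and Krt10 share above 1% and held most of its Grhl1: the Grhl1 level there was 259 CPM (scaled without TMM) with that well and 113 CPM without it, beside 152 CPM in traced mouse 1. Grhl3 in the same order was 0, 12.1 and 0 CPM, 178, 24.6 and 28.2 CPM and 128, 0 and 8.64 CPM, and at 0 in lower HF-like wells of all 3 mice. In the traced mice Grhl3 was 0 and 17.9 CPM, 40.7 and 88.3 CPM and 118 and 104 CPM in these classes, and in lower HF-like wells 0 and 32.8 CPM, the latter all from the same well. Ovol1 was 0, 0 and 4.83 CPM in IFE I-like, 0, 108 and 95.8 CPM in IFE II-like and 128, 73.4 and 51.8 CPM in upper HF-like wells, so it was at 0 in 2 of 3 IFE I-like sums. In the traced mice Ovol1 was 22.6 and 47.8 CPM, 183 and 88.3 CPM and 130.1 and 156 CPM in the same order, and 7.12 and 92.9 CPM in lower HF-like wells, where 8 of the 17 transcripts in traced mouse 2 lay outside that well. No test of Grhl3 or Ovol1 between classes is given, since with the traced mice added they came past the filter through the classes where they were high. Trp63 was 494, 115 and 86.9 CPM in IFE I-like and 423, 104 and 124 CPM in IFE II-like wells and was called in none of the classes by edgeR (0.04, 0.13 and 0.34 in IFE II-like, upper HF-like and lower HF-like wells, adjusted p = 0.964, 0.880 and 0.555). In the traced mice Trp63 was 659 and 658 CPM in IFE I-like, 448 and 492 CPM in IFE II-like, 154 and 286 CPM in upper HF-like and 555 and 388 CPM in lower HF-like wells, so their upper HF-like wells lay below their IFE I-like wells. Over the same IFE classes Krt14 fell by 3.39 on the log2 scale.

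**Figure D4:**
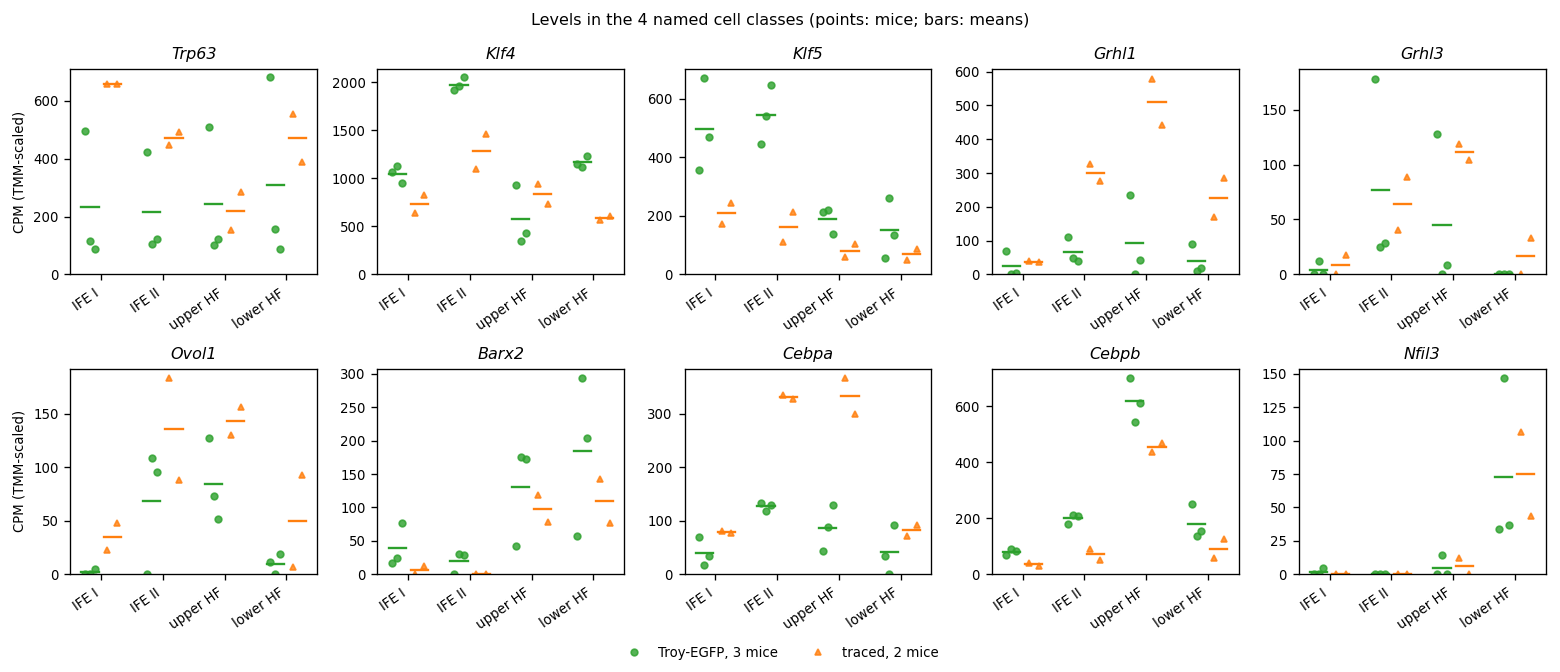
Level of each factor in CPM in the 4 named classes, 1 point per mouse for Troy-EGFP mice 2, 3 and 4 and for 2 traced mice, with bars at the means. Cebpb is highest in upper HF-like wells, at 543 to 701 CPM in the Troy-EGFP mice, and Klf4 in IFE II-like wells, at 1915 to 2056 CPM.

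The share of wells with a transcript of each factor was read against T cell-like wells (median 1816 transcripts) and Langerhans cell-like wells (3008), which are not keratinocytes. They are no background for Nfil3, used by lymphocytes, and Klf4 and Cebpb are not limited to keratinocytes either. Klf4 was detected in 91.8% (95% exact interval 86.4 to 95.6%) of IFE II-like wells (median 4325 transcripts) and 77.4% (95% exact interval 72.1 to 82.1%) of IFE I-like wells (3380), and in 21.4% of T cell-like and 12.8% of Langerhans cell-like wells. Thinned to 1000 transcripts per well, these were 71.1%, 44.4%, 11.4% and 7.69%. Cebpb in IFE I-like wells, at 15.3%, did not stand above the 12.9% of T cell-like and 15.4% of Langerhans cell-like wells, whereas upper HF-like wells (3296) gave 72.0% (95% exact interval 63.0 to 79.9%). Barx2 was in 28.8% of upper HF-like, 28.6% of lower HF-like, 6.27% of IFE I-like and 6.92% of IFE II-like wells, and in 0 of 70 T cell-like wells, where a limit of 3 wells allows up to 4.29%. The share for Trp63 was 48.8% in basal IFE I-like wells, 42.8% in committed IFE II-like wells and 43.7% and 36.4% in lower and upper HF-like wells, against 1.43% in T cell-like wells. After thinning the Trp63 shares were 29.0%, 18.2%, 27.4% and 12.7%. Ovol1 was in 22.0% of both IFE II-like and upper HF-like wells, and in 3.48% of IFE I-like and 3.17% of lower HF-like wells, and Grhl3 in 14.5%, 15.3%, 1.39% and 0.397% of the same classes. Nfil3 was in 11.9% (95% exact interval 8.18 to 16.6%) of lower HF-like wells (2641), in 7.14% of T cell-like wells and in 0 of 159 IFE II-like wells, where a limit of 3 wells allows up to 1.89%. Thinned to 1000 transcripts the shares for Nfil3 were 4.37% in lower HF-like and 5.71% in T cell-like wells, the opposite order to the unthinned shares, so no order is read. Intervals cover counting error over wells only.

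**Figure D5:**
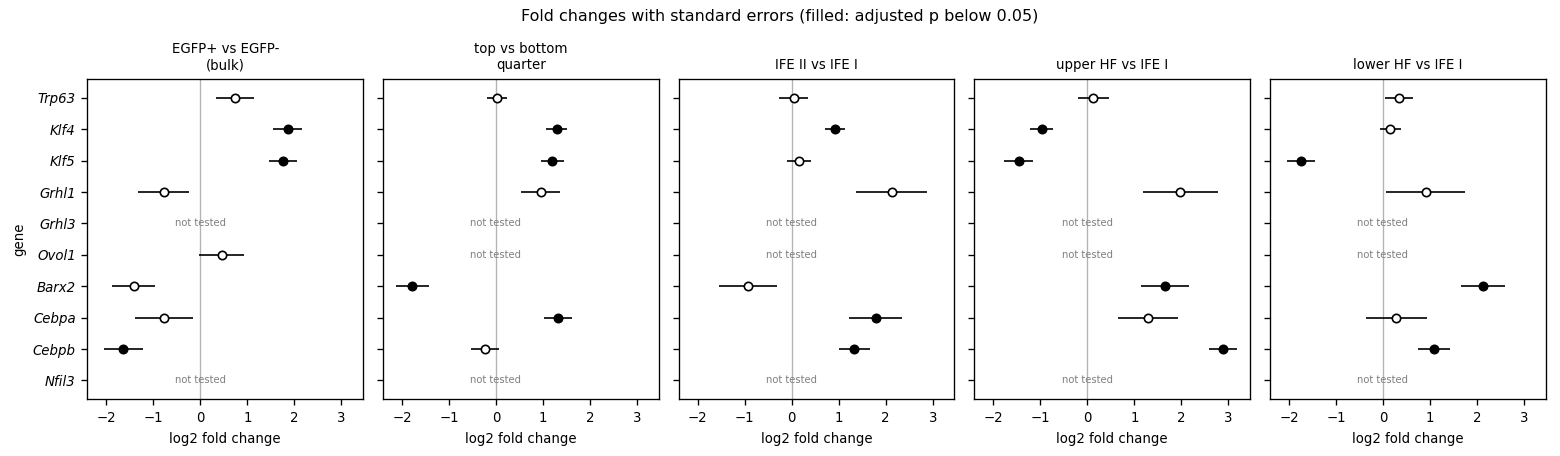
Log2 fold change of each tested factor with its standard error in 5 comparisons, filled where adjusted p was below 0.05: Q4 against Q1, each of the 3 classes against IFE I-like wells, and Troy-EGFP+ against Troy-EGFP- cells. Barx2 lies at -1.78 in Q4 against Q1, and Cebpb at 2.89 in upper HF-like wells. The filled points of Barx2 in the upper and lower HF-like wells carry no weight.

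Of the 30 other regulators 18 were tested between classes. In IFE II-like wells 3 rose, among them Zfp750 (3.25) and Hes1 (1.05), and the homeodomain-only gene Hopx fell (-1.56). In upper HF-like wells Zfp750 (2.67) and Vdr (2.20) rose and 3 fell, Satb1 (-5.13), Maf (-3.04) and Gata3 (-1.86). In lower HF-like wells Vdr rose (2.13) and 6 fell, among them Tfap2c (-2.33), Satb1 (-2.18), Gata3 (-1.71), Hes1 (-1.12) and Bcl11b (-0.98). The list medians were 0.22, -0.29 and -0.37, beside those over all genes given above. Of early differentiation genes 11 were tested and 10 rose in IFE II-like wells, 7 in upper HF-like and 3 in lower HF-like wells, with 1, 1 and 2 that fell, and of 12 basal genes tested 9, 10 and 3 fell and none rose by edgeR. Both lists share genes with the markers that named the classes, so these counts are not independent of the names.

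Genes with the most similar pattern were ranked by Pearson's r over the 24 sums of 6 mice and groups Q1 to Q4, after each mouse's mean was removed. The sums share libraries, depth and cell makeup, and the likest of all genes tested are a description only. Klf4 was most like Zfp750 (0.922), Nhp2 (0.918) and Rplp1 (0.914), the last 2 a nucleolar and a ribosomal protein gene. Cebpa was most like Pkp1 (0.957), Dsg1a (0.938) and Cyp2j6 (0.919), the first 2 desmosomal genes of differentiating layers. Klf5 was most like Clca2 (0.876), Pkib (0.875) and Rpl13a (0.866), and Grhl1 most like Gm20219 (0.885), Dbnl (0.884) and Il1rn (0.878). Barx2 was most like Arpc1b (0.842), Pmp22 (0.841) and Sh3kbp1 (0.829), Cebpb most like Ppfibp2 (0.862), Gm6402 (0.844) and Reep5 (0.838) and Trp63 most like Timm8a1 (0.871), Pgrmc2 (0.867) and Sepw1 (0.866).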

How the data were processed

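The authors deposited raw read counts per gene for the bulk CEL-Seq2 libraries, and, for each SORT-seq plate, estimated transcript counts per gene and well, in which unique molecular identifiers (UMIs) of 6 bases are corrected for repeats. The deposited estimated counts were checked to turn back into whole numbers of barcodes within 3.6e-09 (tolerance 1e-06). The submitters' processing notes list BWA 0.6.2-r126 and mm10 (GRCm38), and also hg19 for the bulk files. Spike-in and mitochondrial rows were left out of the totals.

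Wells with at least 1000 transcripts were kept. Counts were summed per mouse and group and rounded to whole numbers, and tested with edgeR 4.0.16 in R 4.3.3 (TMM factors, the default filterByExpr, glmQLFit and glmQLFTest, and a threshold of 0.05 after Benjamini-Hochberg adjustment over all genes passing the filter; the standard error is the log2 fold change over the root of F), with the mouse as a block in fits of wells and classes and without it in bulk, where all 3 populations shared 1 fit. The groups Q1 to Q4 were formed by rank within a mouse, with ties placed by a seeded draw. Shares of wells carry exact binomial intervals at 95%, and a count of 0 allows up to 3. Clusters came from SCTransform in Seurat 5.3.0 (sctransform 0.4.2; 3000 variable genes, 20 components, resolution 0.8), for Troy-EGFP and traced mice separately, with all factors and other regulators held out. Classes were named from fixed markers, and sums of fewer than 10 wells were left out. No doublet caller was run, as a well is meant to hold 1 sorted cell. Steps were tested on simulated data: with 200 genes changed by a log2 fold of 2, 81% were recovered between the basal populations (4304 genes), 92% between Q4 and Q1 (3638 genes) and 85% between IFE II-like and IFE I-like wells (2623 genes).

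The members, the named genes (all members, the called other regulators, up to 4 called genes of the other lists with the largest changes, and the 3 genes most like each member) and the lists of other regulators, early differentiation genes, basal genes and class markers were chosen with earlier results of these data known. A few called genes of these lists are counted but not reported here by name. Alternatives were DESeq2 1.42.0, its size factors, no filter, the other choice of block, other limits of depth, bins and clusters, observed barcodes, the populations fitted apart, and mice or libraries left out. Groups by none, low and high share, the fixed limits of the share, interfollicular wells alone and the plates with or without the EGFP row were chosen after seeing the data. The replicate numbers of the bulk libraries name the mouse that gave all 3 populations. Deviations of same-mouse libraries from the group means correlated at 0.119 (viable and Troy-EGFP+), 0.103 (viable and Troy-EGFP-) and 0.0759 (both basal populations) over 4089 genes. Replicates of every group differed by more than sampling noise (chi-square over its degrees of freedom 1.50 to 4.06 in bulk and 2.47 to 20.0 between plates).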

Additional observations from a re-analysis of the deposited data

Results flagged for a closer look

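Over 40 groups of 4 to 10 mice checked for a value far from the others, 1 stood out: Nfil3 in Q4, where traced mouse 2 had 4.50 CPM, from 1 transcript, and the other 5 mice had 0. Its gap to the nearest mouse was the whole range of the group, above Dixon's critical value of 0.625 for 6 samples. With the other mice at exactly 0, any 1 transcript gives this gap, so it carries no weight. Chance flags about 1 in 20 such groups.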

How the results depend on the processing

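Klf4 was called between Q4 and Q1 under all 23 alternatives, Klf5 under 19 of 23, Cebpa under 18 of 21 and Barx2 under 18 of 20. Cebpb in upper HF-like and Klf5 in lower HF-like wells were called under 11 of 11, and Klf4 and Klf5 between the basal populations under 11 of 11. With 4 members called between Q4 and Q1 and 5 between Q4 and Q3 as reported, the counts were 8 and 8 with no filter on low counts (where 888 and 661 of 18262 genes were called), 2 and 1 after thinning to 1000 transcripts, 2 and 1 in traced mice only, and 1 and 0 in plates without an EGFP row. In Troy-EGFP mice only, 3 members were called between Q4 and Q3, and in interfollicular wells only 0 were, where Cebpb between Q4 and Q1 was reversed, at 1.29. In classes, no filter gave 5 members called in IFE II-like wells (417 of 16239 genes), and the traced mice added gave 6 there and 7 in upper HF-like wells, but 2 of each were Grhl3 and Ovol1, which came past the filter through the classes where they were high, so these 2 carry no weight. Calls of Barx2 in the follicular classes carry none either. In bulk, fitting only the populations compared gave 0 members called for Troy-EGFP- against viable cells. Except where fewer samples or wells were used, the cause was not tested.

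The mouse as a block was part of the fits of wells and classes. With no replicate block 2 members were called between Q4 and Q1, 0 between Q4 and Q3, and 1 each in IFE II-like, upper HF-like and lower HF-like wells. In bulk the block added the call of Barx2 (-1.46, adjusted p = 0.037) between the basal populations, and 468 genes were called in place of 328, 49 in place of 22 for Troy-EGFP+ against viable cells and 163 in place of 83 for Troy-EGFP- against viable cells. It changed no other member's call in bulk.

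Leaving out 1 library at a time gave 4 to 5 members called between Q4 and Q1, 0 to 0 between Q2 and Q1 and between Q3 and Q2, and 3 to 6 between Q4 and Q3, with 3 without Troy-EGFP mouse 4. It gave 0 to 4 in IFE II-like, 1 to 6 in upper HF-like and 1 to 2 in lower HF-like wells. Troy-EGFP mouse 1 had no sums of classes, and leaving it out is no alternative there. In bulk it gave 2 to 3 between the basal populations, 0 to 0 for Troy-EGFP+ and 0 to 2 for Troy-EGFP- against viable cells.

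Over all genes, DESeq2 called 158, 14 and 42 in the 3 bulk comparisons in the same order, and fitting only the populations compared called 151, 66 and 38. Between Q4 and Q1 and between Q4 and Q3, 625 and 543 genes were called as reported, 147 and 60 with no replicate block, 146 and 126 after thinning, 350 and 250 in Troy-EGFP mice only, 255 and 187 in traced mice only, 351 and 123 in interfollicular wells and 228 and 119 in plates without an EGFP row. In the classes no replicate block gave 114, 157 and 214 genes in place of 375, 456 and 476, and the traced mice gave 513, 788 and 717. Few counts limit Grhl3, Ovol1 and Nfil3.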
